A study of Homo sapiens with 12 samples.

Results

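Crizotinib and ciclopirox were compared directly with each other after 24 h of treatment of A375, an established human melanoma cell line. The comparison used the 2 arrays titled crizotinib 24 h and the 2 titled ciclopirox 24 h, which were 4 of the 12 arrays of the series. These arrays were chosen by their titles, and no control array entered the contrast. Crizotinib is a kinase inhibitor that blocks the receptor tyrosine kinases MET and ALK, and ciclopirox is an antifungal agent that binds iron. Cells were plated overnight and each drug was given at the dose that inhibited the cells by 75% in a 72 h assay. The other arrays were 3 of each drug at 8 h and 2 of cells given the vehicle DMSO, for which the labels give no time. Replicates carry numbers, but nothing states that they were separate cultures, so the p-values measure the spread between arrays, which may be technical.

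Several of the gene groups below follow well known controls. SREBP transcription factors are released when sterol in the endoplasmic reticulum runs low, and they switch on the enzymes that make cholesterol and fatty acids. ATF4 is translated when amino acids are short or proteins misfold, and it switches on genes for amino acid synthesis, amino acid import and tRNA charging. HIF factors are marked for destruction by prolyl hydroxylases that need iron and oxygen, so iron chelators are known to stabilise HIF. In dividing cells the E2F factors drive genes of DNA replication and repair, and p53 holds them down through the inhibitor CDKN1A.

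The deposited tables did not agree on sample names, and this bears on every value below. A table of normalized intensities is named by sample, whereas the scanner table is tied to samples by a column named in each sample's description. Each column of the first table followed 1 scanner column closely, with correlations of deviations from 0.931 to 0.983 over the 12902 probes detected on all arrays and next best values of at most 0.839. For only 2 of the 12 arrays, both controls, was that the column its description named. By the names of the values used here, 12 of 12 arrays had an array of the same group as their closest neighbour, and by the descriptions 7 of 12. The value table was used throughout. With the scanner signals named by the descriptions, limma called 0 genes between the drugs at 24 h, with 1332 at an unadjusted p under 0.05 and a lowest adjusted p of 0.267, and the median log2 difference of the cholesterol synthesis genes was -0.17. All statements below therefore rest on the names of the value table.

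At 24 h the drugs differed at 2494 of 10330 genes tested (24.1%), each with a limma adjusted p under 0.05. Of these, 1275 were higher with crizotinib than with ciclopirox (12.3% of the genes tested) and 1219 were lower (11.8%). A log2 difference is given below as crizotinib minus ciclopirox, so that 1 is a 2-fold higher intensity with crizotinib. The median difference over all genes was 0.0005, and 199 called genes were over 2-fold higher and 153 over 2-fold lower. Of the 655 called genes with other kept probes, 61 had a probe whose difference was of the opposite sign. The typical gap between the arrays of one drug was 0.132 for crizotinib and 0.151 for ciclopirox (medians of absolute log2 values), against a median absolute difference of 0.573 among called genes. In every one of the 2494 calls both crizotinib arrays lay on the same side of both ciclopirox arrays. A called difference with 2 arrays per drug nearly requires this, so it adds no support. The share of such genes among all genes tested was not counted. The number of arrays limits the precision. The count was 1379 without crizotinib replicate 1 and 1511 without ciclopirox replicate 2, and 1754 and 1944 without each of the other arrays.

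A change in total RNA per cell cannot be seen in these data, because every array was given 300 ng of RNA. The columns of the value table also share nearly the same distribution. When the matching scanner signals were instead scaled to the median of all probes, the median gene moved by -0.14 and the split became 704 higher and 1906 lower (27% higher). Differences are thus relative to the average gene. Set beside the controls, the mean of the 1275 higher genes in the control arrays lay between the drugs for 708 genes, below both for 520 and above both for 47. For the 1219 lower genes it lay between the drugs for 675, above both for 446 and below both for 98.

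**Figure D1:**
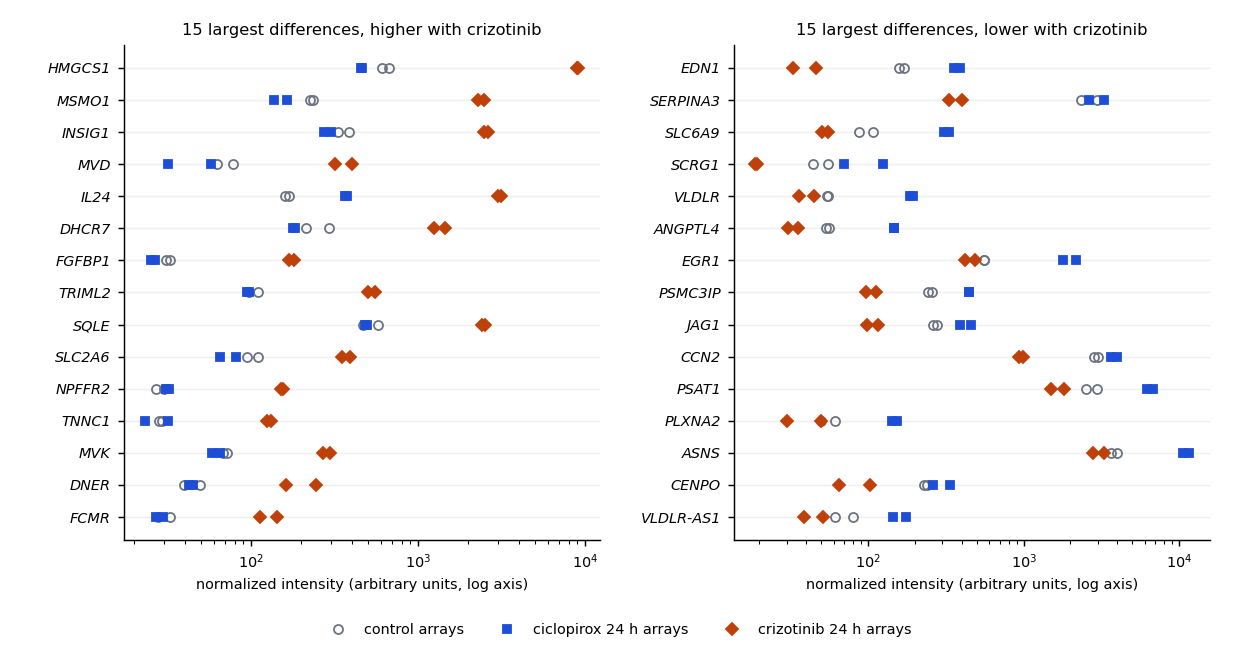
Normalized intensity (log axis) on each crizotinib 24 h, ciclopirox 24 h and control array for the 15 genes with the largest positive and the 15 with the largest negative differences. In every row the 2 diamonds (crizotinib) stand apart from the 2 squares (ciclopirox), and for most cholesterol genes the squares lie near or below the open control circles.

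Genes of cholesterol synthesis were the most uniform group, and they lay higher with crizotinib at nearly every step of the pathway. Of 15 measured members 14 were higher and 0 lower, with a median log2 difference of 1.61, and at least 11 were called when any 1 array was left out. HMGCS1, which makes the HMG-CoA from which the pathway starts, read 9140 and 8960 with crizotinib, 462 and 453 with ciclopirox and 610 and 673 in the controls. Both crizotinib arrays lay far above all others, and the ciclopirox arrays lay below the controls. The difference was 4.30 ± 0.09 (SE, adjusted p = 1.34e-09), a 19.8-fold gap. MSMO1, an oxidase that removes sterol methyl groups, read 2490 and 2300 against 165 and 137, a difference of 3.99 ± 0.12 (adjusted p = 3.27e-08), and a second probe gave 3.66.

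The middle and late enzymes followed the same pattern. The mevalonate enzymes MVD and MVK differed by 3.06 ± 0.27 and 2.19 ± 0.16. MVD read 401 and 318 with crizotinib and 31.9 and 57.4 with ciclopirox, and the reading of 31.9 was not above background. Its ciclopirox arrays were spread more widely than those of crizotinib but did not reach them. For DHCR7, which makes cholesterol in the last step, the intensities were 1440 and 1250 against 177 and 182, and the difference was 2.90 ± 0.17 (adjusted p = 3.31e-06). SQLE, the squalene epoxidase, stood at 2420 and 2530 against 496 and 478 (2.34 ± 0.12, adjusted p = 1.86e-06). Its second probe also gave 2.34. The remaining called members ran from 0.35 for TM7SF2 to 2.10 for LSS, whose other probe gave 0.46. TM7SF2, a sterol reductase, was not called when any 1 of the 4 arrays was left out (adjusted p from 0.0569 to 0.228). PMVK, a mevalonate pathway kinase, was not called, at 0.22 with a 95% interval from -0.03 to 0.48.

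**Figure D2:**
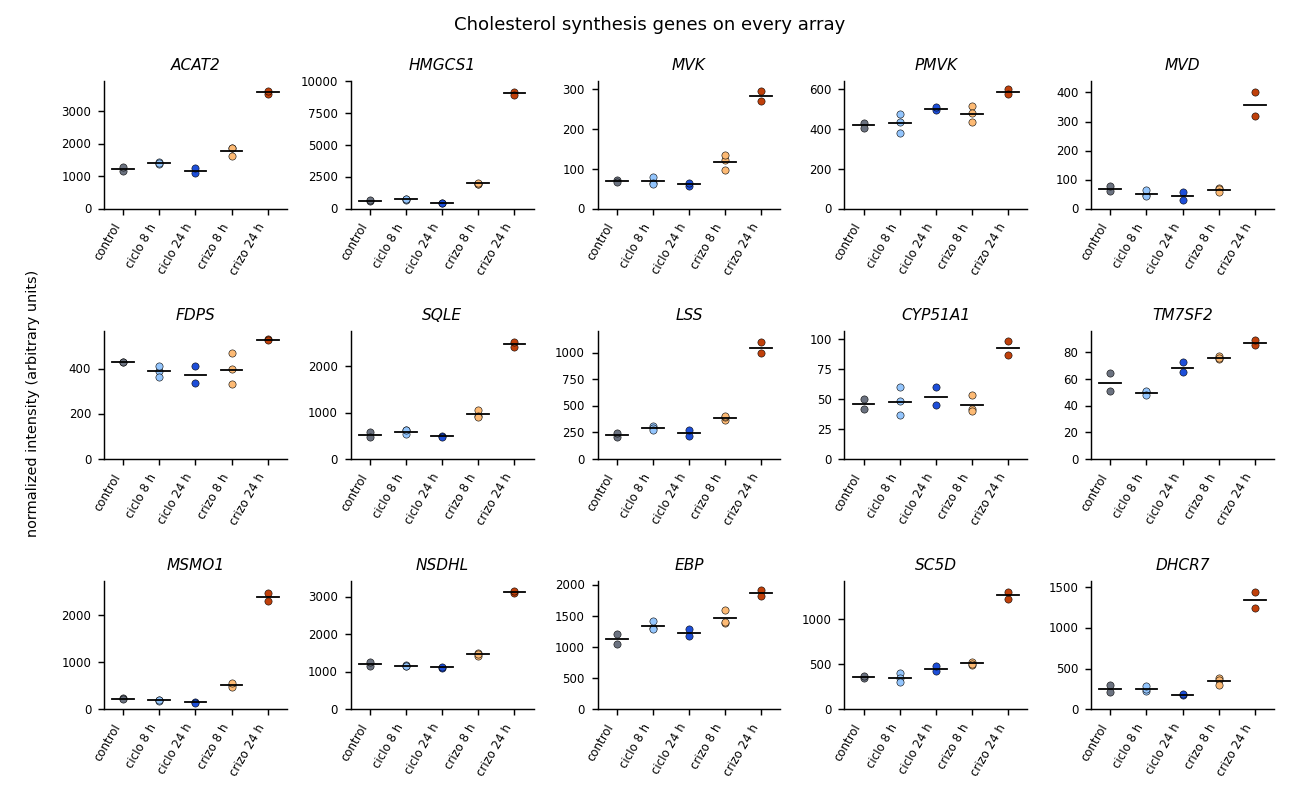
Normalized intensity of the 15 measured cholesterol synthesis genes on all 12 arrays, in 5 groups, with a bar at each group's mean log2 value. The crizotinib 24 h points lie highest in each panel, the crizotinib 8 h points lie between in panels such as HMGCS1 and MSMO1, and both ciclopirox groups lie near the controls for most genes.

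At 8 h, on other arrays, 9 of the same 15 genes were higher with crizotinib and 0 lower, where 532 of all genes (5.15%) were higher and 503 (4.87%) lower. The 8 h median was 0.40. HMGCS1 had differed by 1.38 and MSMO1 by 1.42 at that time. The difference grew from 8 h to 24 h, by a direct test of the change, for 10 of the 15, against 554 of all genes (5.36%) whose difference moved towards crizotinib and 618 (5.98%) whose difference moved towards ciclopirox. Against the shared controls the median at 24 h was 1.84 with crizotinib and -0.10 with ciclopirox.

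The sterol sensors and neighbouring lipid genes were mixed in size. INSIG1, which retains the SREBP escort protein in the endoplasmic reticulum when sterol is plentiful and is itself an SREBP target, read 2490 and 2640 against 300 and 272. The groups were far apart, with a difference of 3.16 ± 0.10 (adjusted p = 4.07e-08) and 1.67 already at 8 h. LPIN1, a phosphatidate phosphatase, differed by 2.09 ± 0.12. SCAP, the escort protein itself, differed by 0.38 ± 0.08 but was not called without crizotinib replicate 2 (adjusted p = 0.0511). The other 3 of the 6 measured genes in this group of SREBP2 targets were not called, and they included SREBF2, which encodes SREBP2 (-0.35, 95% interval -0.74 to 0.05).

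Fatty acid synthesis moved in the same direction by smaller amounts, with 8 of 12 measured genes higher and 1 lower and a median of 0.53. The stearoyl-CoA desaturase SCD read 7810 and 8720 against 2240 and 2360, and the difference was 1.84 ± 0.10 (adjusted p = 2.65e-06). ACSS2, which makes acetyl-CoA from acetate, differed by 1.29 ± 0.10, the synthase FASN by 0.99 ± 0.12 and the elongase ELOVL6 by 0.95 ± 0.11. Further probes gave 0.38 and 1.31 for ACSS2 and 0.76 for ELOVL6. FASN read 10900 and 10800 with crizotinib and 5630 and 5280 with ciclopirox, whereas the controls at 6810 and 7030 lay above the ciclopirox arrays. SREBF1, which encodes SREBP1, was the lower gene, at 193 and 200 against 330 and 364 (-0.82 ± 0.11, adjusted p = 0.000446), and its second probe gave -0.03. Genes of sterol efflux under the oxysterol receptor LXR included 2 lower and 0 higher of 6. MYLIP, a ubiquitin ligase induced by LXR, differed by -1.20 ± 0.12 and the cholesterol exporter ABCA1 by -0.87 ± 0.13. ABCA1 stayed close to background, at 38.7 and 38.7 against 72.2 and 69.5.

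Lysosomal genes were also higher with crizotinib, with smaller differences. Of 37 measured members 23 were higher and 1 lower, with a median of 0.44. The higher count was 15 without crizotinib replicate 2 and 13 without ciclopirox replicate 2, and 11 after scaling to the median of all probes. When any 1 of the 4 arrays was left out, the lower count was 0. Promoters of some of these genes are known to carry the CLEAR element, which is bound by the lysosomal regulators TFEB and TFE3. The letters TCACGTGA were searched on both strands in the 250 bases before each RefSeq start site (GRCh38.p14), for the 8373 of 10330 genes with a promoter entry. The element contains the E-box CACGTG that several other factors bind. It was found in 150 promoters (1.79%), in 32 of 1042 genes called higher (3.07%), in 12 of 1008 called lower (1.19%), in 5 of 24 lysosomal genes (20.8%) and in 3 of 33 DNA replication genes (9.09%), a list with no gene called higher. Matches in 4 lysosomal genes that were higher with crizotinib are given with up to 20 bases on each side and the match in capitals, 1 match per gene although MCOLN1 and GAA each held 2, because they are the shared sequence that the selection of the genes by arrays did not use. The 4 genes were chosen for holding the match and for being called, so their calls add no support. The other lysosomal gene with a match is not shown, and its difference is not given.
CTSA, chr20:45891289-45891334, plus strand: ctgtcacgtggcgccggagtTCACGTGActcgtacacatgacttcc
MCOLN1, chr19:7522589-7522623, plus strand: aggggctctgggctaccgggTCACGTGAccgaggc
GAA, chr17:80101529-80101576, plus strand: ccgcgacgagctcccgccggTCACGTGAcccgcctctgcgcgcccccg
ATP6V0D1, chr16:67481190-67481237, minus strand: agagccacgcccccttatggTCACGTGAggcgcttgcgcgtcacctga
The protective protein CTSA differed by 0.58 ± 0.11 and the calcium channel MCOLN1 by 0.47 ± 0.13. The glucosidase GAA differed by 0.73 ± 0.17, with 0.29 on a second probe, and the proton pump subunit ATP6V0D1 by 0.46 ± 0.10. MCOLN1 was not called without crizotinib replicate 1, without ciclopirox replicate 1 or without ciclopirox replicate 2 (adjusted p from 0.0854 to 0.216), nor GAA without crizotinib replicate 1 or without ciclopirox replicate 2 (0.0923 and 0.0664). A match describes letters only and does not show that a factor was bound.

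Other lysosomal genes differed by more. GPNMB, a membrane glycoprotein of melanosomes and lysosomes, read 1070 and 1270 with crizotinib against 383 and 367, and the controls at 351 and 288 lay with ciclopirox. The difference was 1.64 ± 0.14 (adjusted p = 2.79e-05), with 1.61 on a second probe. The protease cathepsin F, CTSF, read 399 and 395 against 136 and 133 (1.56 ± 0.16). RRAGD, a GTPase that tethers mTORC1 to lysosomes, differed by 1.02 ± 0.10, cathepsin H (CTSH) by 0.98 ± 0.15 and FNIP1, a partner of folliculin, by 0.91 ± 0.17. The common lysosomal membrane protein LAMP1 was not called (0.17, 95% interval -0.01 to 0.35). Among genes of autophagy 3 of 21 were higher and 1 lower, near or below the 12.3% and 11.8% of all genes tested. Their median was -0.04, and the lower count was 3 after the same scaling. The cargo receptor SQSTM1 was the largest of them, at 30200 and 28600 against 12400 and 10500 (1.36 ± 0.10, adjusted p = 1.02e-05), and its controls at 12700 and 13200 were near the ciclopirox arrays. The receptor OPTN and the membrane marker MAP1LC3A differed by 1.23 ± 0.15 and 0.89 ± 0.09, and BNIP3, a mitophagy receptor and HIF target, by -0.88 ± 0.11.

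In the opposite direction, genes of the ATF4 response were lower with crizotinib, and here the ciclopirox arrays stood above the controls. Of 19 measured factors and effectors 11 were lower and 1 higher, with a median of -0.83, and against control the medians were 0.20 with crizotinib and 1.06 with ciclopirox. ATF4 mRNA itself read 6820 and 7570 against 14200 and 12500, with controls at 8320 and 8700. The difference was -0.89 ± 0.10 (adjusted p = 0.000215), and 2 further probes gave 0.07 and -1.20. DDIT3, the stress factor CHOP, read 449 and 448 against 992 and 1100, and both drugs stood above the controls at 250 and 286 (difference -1.22 ± 0.16). CEBPG, a partner of ATF4, differed by -1.23 ± 0.09, and the ATF4 inhibitor TRIB3 by -0.89 ± 0.11.

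Several effectors of the same group were near background with crizotinib. VLDLR, a lipoprotein receptor that ATF4 is known to induce, read 35.7 and 44.6 against 194 and 185 (-2.25 ± 0.15, adjusted p = 7.61e-06). CHAC1, which breaks down glutathione, was not above background on either crizotinib array, at 16.6 and 17.9, and read 53.5 and 64 with ciclopirox. Such a gene has only a bound, found by dividing the bright group's mean by the dim group's. Each dim reading was first raised to the limit over which a reading on that array counted as above background. By this bound CHAC1 was at least 1.51-fold lower with crizotinib (adjusted p = 6.17e-05). The hormone gene STC2 and the leucine sensor SESN2 differed by -1.26 ± 0.15 and -1.31 ± 0.21. SESN2, also a p53 target, read 87.6 and 55.8 against 173 and 174, all above the controls at 38 and 29.3. GDF15, a stress hormone, stood at 494 and 485 against 458 and 411, far above the controls at 33.2 and 30.9. Between the drugs it was not called (0.17, 95% interval -0.27 to 0.62).

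The enzymes of serine, asparagine and one-carbon metabolism had the largest share of lower genes in this response, 12 of 17 with a median of -0.67, and 2 higher (14 and 0 after scaling to the median of all probes). PSAT1, an aminotransferase of serine synthesis, read 1500 and 1830 against 6820 and 6240. Crizotinib lay below the controls at 2530 and 2980 and ciclopirox above them, with a difference of -1.98 ± 0.15 (adjusted p = 1.68e-05). Asparagine synthetase, ASNS, read 2800 and 3280 against 11500 and 10600 (-1.87 ± 0.12, adjusted p = 5.2e-06), and a second probe gave -1.78. The cysteine-producing enzyme CTH differed by -1.73 ± 0.19, the mitochondrial folate enzyme MTHFD2 by -1.65 ± 0.13 and the mitochondrial carboxykinase PCK2 by -1.66 ± 0.16. PCK2 read 322 and 339 against 915 and 1200, with the controls at 332 and 295 level with crizotinib. The 2 higher members were GCLC and GCLM, the subunits of glutamate-cysteine ligase, which are described with the antioxidant genes, and the higher count was 1 without crizotinib replicate 1, without crizotinib replicate 2 or without ciclopirox replicate 2.

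Amino acid transporters were lower for 9 of 16 and higher for 1, with a median of -0.38, and without crizotinib replicate 1 only 5 were lower. The higher count was 0 without crizotinib replicate 1 or without ciclopirox replicate 2, and 2 after scaling to the median of all probes. The glycine carrier SLC6A9 read 55.5 and 50.5 against 308 and 331, and the groups were separated by more than any other transporter (-2.59 ± 0.13, adjusted p = 1.86e-06). The glutamine carrier SLC1A5 read 396 and 368 against 1150 and 1290, a difference of -1.68 ± 0.09 (adjusted p = 2.15e-06), with the controls at 847 and 840 in between. SLC1A4, a carrier of neutral amino acids, was not above background with crizotinib and was at least 2.40-fold lower (adjusted p = 0.000645). The cystine carrier SLC7A11, a common readout of ATF4, was not called at -0.32 (95% interval -0.56 to -0.08, adjusted p = 0.0538). Of 17 aminoacyl-tRNA synthetases, which charge tRNAs, 8 were lower and 1 higher, with a median of -0.22, and the higher count was 0 when any 1 of the 4 arrays was left out and after that scaling. GARS1 for glycine, MARS1 for methionine and WARS1 for tryptophan differed by -1.03 ± 0.10, -0.95 ± 0.12 and -0.82 ± 0.09. At 8 h 9 of the 19 factors and effectors were already lower, and the median of the synthetases was -0.09.

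**Figure D3:**
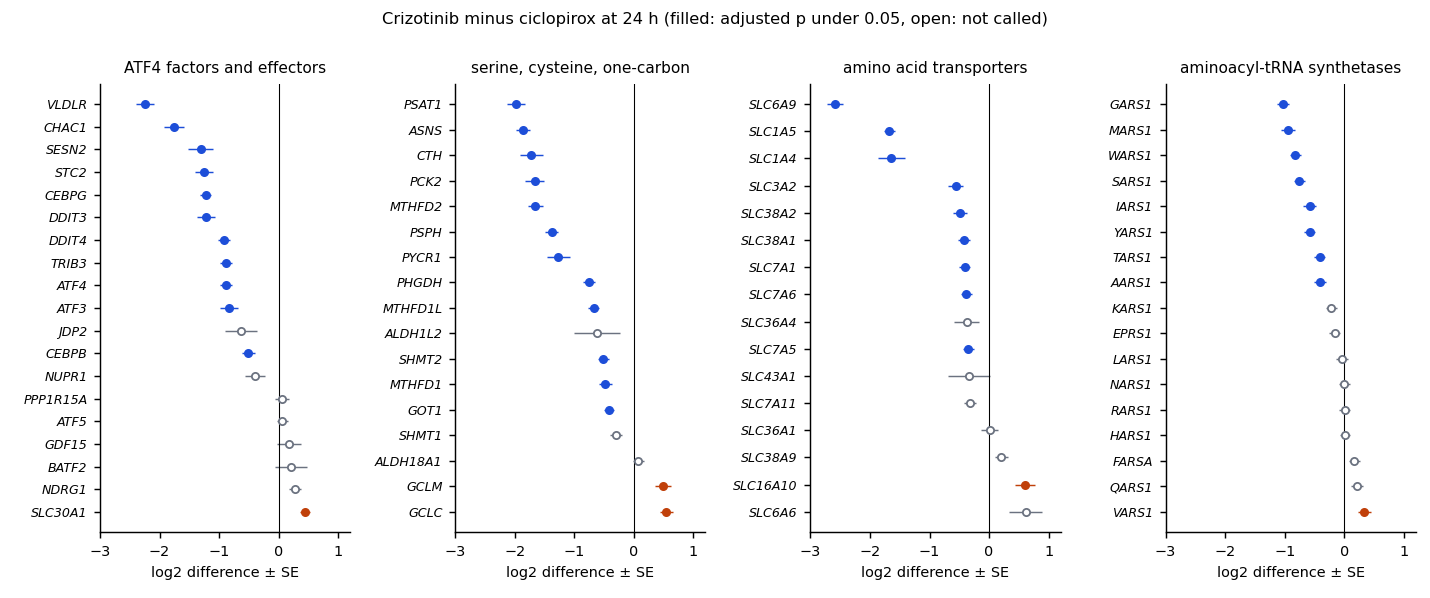
Log2 difference, crizotinib minus ciclopirox at 24 h, with its SE, for every measured gene of 4 amino acid response lists (filled points called, open points not). Most filled points lie left of 0, with SLC6A9 farthest, and the fitted values of CHAC1 and SLC1A4, which were not above background with crizotinib, are not bounds.

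The composite element that ATF4 binds with C/EBP partners was searched as TTGCATCA on both strands of the same promoter windows. This motif differs from the CLEAR letters but ends with the TCA that opens them, and overlapping matches were not counted. It was present in 31 promoters (0.37%), in 13 of 1008 genes called lower (1.29%), in 3 of 1042 called higher (0.288%) and in 15 of 6323 not called (0.237%). In the lists above, 5 measured genes held it, and their sequences are given. All 5 were lower with crizotinib, but so were most called members of these lists, so their direction adds no support. Of the 5 genes MTHFD1L, GOT1 and AARS1 were chosen for the match, and the capitals again mark it.
CHAC1, chr15:40953242-40953289, plus strand: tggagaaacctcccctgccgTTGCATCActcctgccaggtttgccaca
MTHFD1L, chr6:150866337-150866384, plus strand: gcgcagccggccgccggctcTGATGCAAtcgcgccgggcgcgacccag
GOT1, chr10:99430795-99430842, minus strand: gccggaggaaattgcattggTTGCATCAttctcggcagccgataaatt
AARS1, chr16:70289666-70289713, minus strand: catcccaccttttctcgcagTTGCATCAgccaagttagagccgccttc
IARS1, chr9:92293698-92293730, minus strand: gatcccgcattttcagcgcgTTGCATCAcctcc
MTHFD1L, a mitochondrial folate enzyme, differed by -0.67 ± 0.09, the transaminase GOT1 by -0.42 ± 0.09, and the synthetases AARS1 and IARS1 by -0.40 ± 0.10 and -0.58 ± 0.11. Leaving out crizotinib replicate 1, crizotinib replicate 2 or ciclopirox replicate 1 ended the call of AARS1 (adjusted p from 0.0658 to 0.106), and leaving out crizotinib replicate 1 ended that of GOT1 (adjusted p = 0.0513). For comparison, the sterol element searched as TCACNCCAC was found in 74 promoters (0.884%), in 14 of 1042 higher genes (1.34%) and in 0 of the 13 cholesterol synthesis genes with an entry, which says only that these letters are not in these windows.

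Among chaperone and folding genes of the endoplasmic reticulum 4 of 19 were lower and 0 higher, with a median of -0.19. Scaling to the median of all probes gave 8 lower and a median of -0.38, whereas only 2 were lower without crizotinib replicate 1, without crizotinib replicate 2 or without ciclopirox replicate 2. XBP1, a transcription factor of the unfolded protein response, read 1240 and 1210 against 3810 and 3250, a difference of -1.52 ± 0.10 (adjusted p = 7.29e-06) with -1.41 on a second probe. The chaperone BiP, HSPA5, read 395 and 443 against 743 and 647. All 4 arrays were below the controls at 1030 and 1010, and the difference was -0.73 ± 0.10. In the group of cytosolic and mitochondrial heat shock genes 4 of 18 were higher and 1 lower, with a median of 0.15. After all-probe median scaling 3 were higher and 2 lower, with a median of -0.01. The lower gene was the mitochondrial chaperone HSPA9 (-0.55 ± 0.11), which was not called without crizotinib replicate 1 (adjusted p = 0.0563). The lower count was 0 without crizotinib replicate 1 and 2 without ciclopirox replicate 1. The near-identical genes HSPA1A and HSPA1B, whose probes may not be told apart, differed by 1.69 ± 0.17 and 1.16 ± 0.11. HSPA1A read 478 and 454 against 173 and 121, and all 4 arrays lay below the controls at 1060 and 982. The small chaperone HSPB1 differed by 0.72 ± 0.08.

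Targets of HIF were lower with crizotinib for 12 of 26 measured genes and higher for 4, with a median of -0.34. The higher count was 2 without crizotinib replicate 1, without crizotinib replicate 2 or without ciclopirox replicate 2, and 2 after scaling to the median of all probes. The angiogenic factor VEGFA read 110 and 96.6 against 323 and 252, a difference of -1.47 ± 0.13 (adjusted p = 5.44e-05), and the controls at 128 and 143 were close to crizotinib. The collagen prolyl hydroxylase subunit P4HA1 differed by -1.27 ± 0.14. ANGPTL4, a secreted lipase inhibitor, was not above background with crizotinib and was at least 3.77-fold lower (adjusted p = 1.68e-05), but a second probe gave 0.11. Hexokinase HK2 read 485 and 430 against 870 and 945 (-0.99 ± 0.11), and it belongs to the glycolysis group too, where 8 of 19 genes were lower and 1 higher (9 and 0 after that scaling). The glucose carrier SLC2A1 and the kinase PGK1 differed by -0.57 ± 0.09 and -0.59 ± 0.09. At 8 h more HIF targets had been lower with crizotinib, 18 of 26 with a median of -0.61 and 0 higher.

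Some HIF targets crossed sides between the times. BHLHE40, a repressor that also acts in the circadian clock, was lower with crizotinib at 8 h by -1.06 and higher at 24 h, when it read 1430 and 1360 against 691 and 717 and all arrays stood above the controls at 387 and 386. The 24 h difference was 0.99 ± 0.08 (adjusted p = 2.13e-05), and the change between times was itself called. PFKFB4, a regulator of glycolysis, went from -1.13 to 0.43 in the same way, but its 24 h call was lost without crizotinib replicate 1, without crizotinib replicate 2 or without ciclopirox replicate 2 (adjusted p from 0.0548 to 0.106). It was named here for this crossing, after its values had been seen.

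Genes of iron handling were divided, with 6 of 16 higher and 3 lower and a median of 0.08. Scaling to the median of all probes gave 2 higher and 5 lower and a median of -0.06. Without crizotinib replicate 1 the counts were 2 and 1, without ciclopirox replicate 2 the higher count was 2, and without ciclopirox replicate 1 the lower count was 1. The ferritin light chain FTL, which stores iron, read 27800 and 26700 against 18600 and 16600, with controls at 16700 and 18800, a difference of 0.64 ± 0.10 (adjusted p = 0.00112). HMOX1, which frees iron from haem, read 157 and 145 against 67.1 and 55.3 (1.31 ± 0.12, adjusted p = 6.17e-05). FTH1 and CA9 are not analysed here. HMOX1 also heads the antioxidant genes under NRF2, of which 9 of 21 were higher and 1 lower, with a median of 0.04 that became -0.13 under the same scaling. The higher count there was 5 without crizotinib replicate 2 and 4 without ciclopirox replicate 2. The lower count was 2 without ciclopirox replicate 1 and 0 without any of the other arrays, and only 3 were higher after that scaling. The reductases TXNRD1 and NQO1 differed by 0.60 ± 0.10 and 0.59 ± 0.08, and GCLC and GCLM by 0.54 ± 0.11 and 0.49 ± 0.13. GCLM was not called without crizotinib replicate 1, without crizotinib replicate 2 or without ciclopirox replicate 2. Of 8 metallothionein and zinc genes 1 was higher, the zinc exporter SLC30A1 (0.44 ± 0.09), and after that scaling 0 were higher and 1 lower.

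Targets of p53 were more often higher with crizotinib, 12 of 28 with 2 lower and a median of 0.32. The all-probe median scaling gave 6 higher and 4 lower. Against control the medians were 1.07 with crizotinib and 0.82 with ciclopirox, so that both drugs stood above the controls. CDKN1A, the inhibitor that stops cyclin-dependent kinases, read 240 and 225 with crizotinib, 68 and 46.2 with ciclopirox and 30 and 26.7 in the controls. The difference was 2.05 ± 0.22 (adjusted p = 0.000136), whereas at 8 h it was -0.12 and not called. ZMAT3, an RNA-binding target of p53, read 1860 and 2120 against 994 and 782 (1.17 ± 0.14), with 1.12 on a second probe. CYFIP2 and the stress protein TP53INP1 differed by 1.16 ± 0.11 and 1.17 ± 0.19. MDM2, which degrades p53, differed by 0.71 ± 0.20 (adjusted p = 0.0275), and it was not called when any 1 of the 4 arrays was left out (adjusted p from 0.061 to 0.14).

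Among regulators of apoptosis PMAIP1, the protein NOXA, was lower with crizotinib at 195 and 216 against 463 and 432 (-1.13 ± 0.14, adjusted p = 0.000308). The activator HRK was higher, at 253 and 217 against 124 and 128 and above the controls at 62.1 and 66.7 (0.90 ± 0.18). In the BCL2 family as a whole 4 of 11 were higher and 1 lower, with a median of 0.11. Scaling to the median of all probes gave 1 higher and 2 lower and a median of -0.01. The higher count was 1 without crizotinib replicate 2 and 2 without any of the other 3 arrays, and the lower count was 2 without ciclopirox replicate 1.

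Genes of DNA replication were lower with crizotinib for 29 of 39 members and higher for 0, with a median of -0.72, and at least 23 were lower when any 1 array was left out. ORC6, part of the complex that marks origins, read 230 and 319 against 694 and 651, a difference of -1.31 ± 0.18 (adjusted p = 0.000556), with controls at 684 and 475. The clamp loader subunit RFC3 and the polymerase subunits POLE and POLE2 differed by -1.18 ± 0.15, -1.17 ± 0.14 and -1.12 ± 0.12. The kinase CDC7, which fires origins, read 97.3 and 136 against 270 and 230 (-1.11 ± 0.16). The helicase subunit MCM2 differed less, by -0.51 ± 0.10. Against control the medians were -0.80 with crizotinib and -0.25 with ciclopirox. In bulk RNA, fewer cells in a phase of the cycle and less RNA per cell cannot be told apart.

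Fanconi and homologous recombination genes were lower for 15 of 17, a share of called members second only to cholesterol synthesis, with a median of -0.78 and 0 higher. The exonuclease EXO1 read 363 and 420 against 1410 and 1180, and the controls at 1200 and 1220 were level with ciclopirox (-1.72 ± 0.12, adjusted p = 1.23e-05). FANCB of the Fanconi core complex differed by -1.58 ± 0.15, the strand exchange motor RAD54L by -1.46 ± 0.12 and the helicase BLM by -1.41 ± 0.10. For this list the medians against control were -1.12 with crizotinib and -0.08 with ciclopirox. PSMC3IP, a partner of the recombinases, was among the 15 genes lowest with crizotinib, at 96.9 and 113 against 445 and 447 (-2.09 ± 0.11), and both further probes gave -2.51 and -1.56. Of 17 genes of nucleotide synthesis 9 were lower and 0 higher. RRM2, the ribonucleotide reductase subunit that carries the iron centre, read 330 and 381 against 1100 and 941 (-1.52 ± 0.14, adjusted p = 4.75e-05), whereas RRM1 differed by -0.61 ± 0.08.

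The median difference of the mitotic genes had opposite signs at the 2 times. How many members were called in opposite directions was not counted. At 24 h 18 of 44 were lower with crizotinib and 0 higher, with a median of -0.30. At 8 h 26 of the 44 had been higher and 0 lower, with a median of 0.39. The change between times was called towards ciclopirox for 28 of them. CDK1, the kinase that drives entry into mitosis, read 573 and 739 against 1420 and 1360 at 24 h, a difference of -1.10 ± 0.12 (adjusted p = 0.000141), after 0.35 at 8 h (adjusted p = 0.0495). The ubiquitin-conjugating enzyme UBE2C read 3770 and 4430 against 7380 and 6460 (-0.76 ± 0.11), after 0.37 at 8 h. The largest members were HAUS8 of the spindle augmin complex (-1.54 ± 0.10) and the kinetochore protein CENPK (-1.48 ± 0.14), neither of which had been called at 8 h. CENPO, another kinetochore gene, differed by -1.85 ± 0.19. MKI67, the proliferation marker, was not called at -0.50 (95% interval -0.89 to -0.11), but without ciclopirox replicate 1 it was, at -0.80 (adjusted p = 0.00727). Against control the 24 h medians were -0.77 with crizotinib and -0.51 with ciclopirox.

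**Figure D4:**
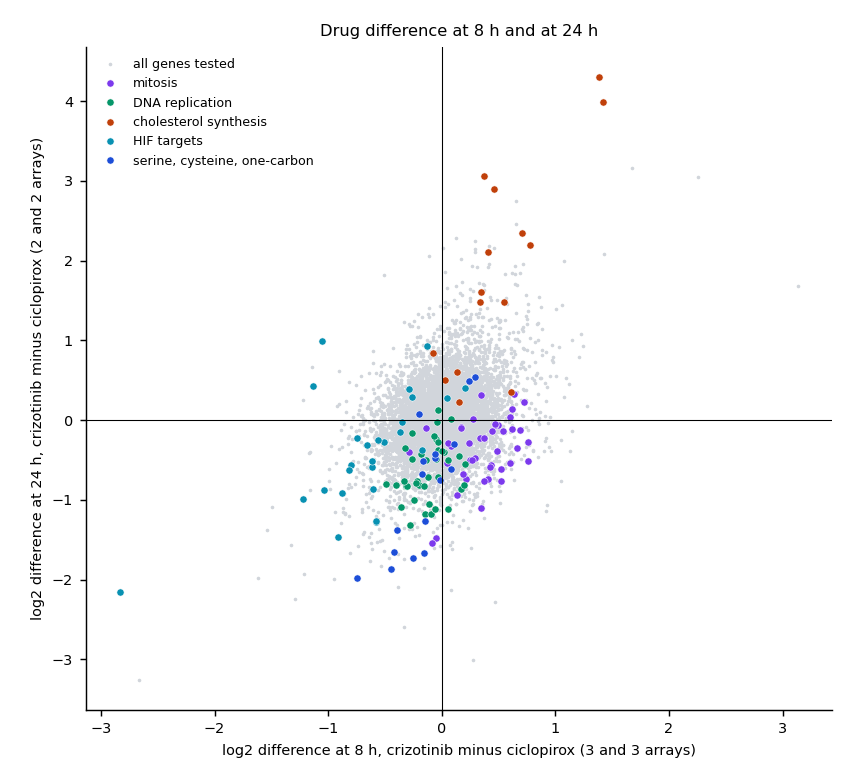
Log2 difference between the drugs at 8 h (horizontal) and at 24 h (vertical) for all 10330 genes, with 5 gene groups coloured. Mitotic genes lie mainly to the right at 8 h and below 0 at 24 h, cholesterol synthesis genes lie high at 24 h, and HIF targets lie mainly to the left.

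Other regulators of the cell cycle gave 7 lower and 1 higher of 23, with 4 lower without crizotinib replicate 1 and 2 higher without crizotinib replicate 1 or without ciclopirox replicate 1. The higher member was CDKN1A. After all-probe median scaling 11 were lower. CDC25A, the phosphatase that activates CDK2, read 398 and 394 against 833 and 1210 (-1.34 ± 0.16), and the repressor E2F7 differed by -1.03 ± 0.10. The mean log2 differences of CCND1, the cyclin of early G1, and E2F1 were -0.13 and -0.06 and were not called (95% intervals -0.37 to 0.11 and -0.65 to 0.54). MYC was not called at -0.25 (95% interval -0.47 to -0.03, adjusted p = 0.0938).

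Immediate early genes, which follow growth factor and stress signals, were lower with crizotinib for 8 of 20 and higher for 2, with a median of -0.31. EGR1 read 487 and 417 against 1800 and 2170, and the controls at 558 and 555 lay just above crizotinib. The difference was -2.13 ± 0.12 (adjusted p = 2.08e-06), after 0.08 and no call at 8 h. FOS, part of the AP-1 factor, read 57 and 55.9 against 177 and 166 (-1.61 ± 0.19), and its partner JUN differed by -1.18 ± 0.14. NR4A2, an orphan nuclear receptor, was higher with crizotinib at 128 and 155 against 61.7 and 55.9 (1.26 ± 0.19).

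Feedback genes of the ERK pathway were mostly not called, with 2 lower and 1 higher of 17 and a median of -0.18. Scaling to the median of all probes gave 6 lower and a median of -0.37. The lower count was 1 when any 1 of the 4 arrays was left out, and the higher count was 2 without ciclopirox replicate 1. The phosphatase DUSP10 was higher, at 163 and 170 against 70.1 and 56.8 (1.40 ± 0.25), and the Sprouty inhibitor SPRY4 lower (-0.59 ± 0.11). The ERK phosphatase DUSP6 differed by -0.45 ± 0.14 (adjusted p = 0.0377) and was not called when any 1 of the arrays was left out (adjusted p from 0.0723 to 0.186). MET, a named target of crizotinib, read 340 and 341 against 421 and 370 and was not called (-0.21, 95% interval -0.50 to 0.08). ALK, the other named target, was not above background in either group. Among 16 receptor tyrosine kinase genes 4 were higher and 3 lower, with a median of 0.14. After the same scaling 2 were higher and 4 lower, with a median of -0.06. The higher count was 0 without crizotinib replicate 1, 1 without ciclopirox replicate 1 and 2 without ciclopirox replicate 2. EGFR differed by -0.80 ± 0.10, at 50.9 and 54.2 against 93.7 and 89.2, with -0.20 on a second probe. Its ligand HBEGF differed by -0.65 ± 0.09, and of the 4 measured EGFR ligands 2 were lower and 1 higher, with 1 lower without ciclopirox replicate 2.

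EDN1, the vasoconstrictor peptide endothelin, had the most negative difference of all named genes. It read 33 and 46.4 with crizotinib, 387 and 359 with ciclopirox and 169 and 157 in the controls. The drugs thus lay on opposite sides of the controls, and the crizotinib reading of 33 was not above background. The difference was -3.25 ± 0.17 (adjusted p = 1.86e-06), after -2.67 at 8 h. CCN2, the connective tissue growth factor and a target of the coactivator YAP, read 997 and 932 against 3990 and 3640 (-1.98 ± 0.10, adjusted p = 1.86e-06), after -1.62 at 8 h. THBS1, thrombospondin, differed by -1.29 ± 0.11 and CCN1 by -0.46 ± 0.09. Together 6 of 13 YAP target and matricellular genes were lower and 0 higher at 24 h, with a median of -0.45, and 7 were lower and 1 higher at 8 h.

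Among extracellular matrix genes 10 of 19 were lower and 0 higher, with a median of -0.44. Tenascin, TNC, read 434 and 360 against 1150 and 1280 (-1.62 ± 0.14, adjusted p = 3.35e-05), and a second probe gave -1.15. The collagen chains COL5A2, COL5A1, COL4A1 and COL4A2 differed by -1.29 ± 0.09, -1.15 ± 0.18, -1.11 ± 0.10 and -0.93 ± 0.20. COL4A1, a basement membrane chain, read 2300 and 2410 against 5490 and 4740, with the controls at 4880 and 4850 on the side of ciclopirox. Of 8 hyaluronan genes 3 were lower and 0 higher. The synthase HAS2 was not above background with crizotinib and was at least 1.87-fold lower (adjusted p = 1.36e-05), and HAS3 differed by -1.09 ± 0.16. In the contractile group 2 of 10 genes were higher and 1 lower, with a median of 0.05. The all-probe median scaling gave 1 higher and 2 lower and a median of -0.11, and the higher count was 1 without crizotinib replicate 1 or without ciclopirox replicate 2. Smooth muscle actin, ACTA2, read 2600 and 2590 against 974 and 1010, with the controls lower at 436 and 453 (1.39 ± 0.09, adjusted p = 5.97e-06). Tropomyosin TPM1 was lower (-0.73 ± 0.09).

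JAG1, a Notch ligand outside the lists, read 97.8 and 116 against 390 and 459, a difference of -1.99 ± 0.13 (adjusted p = 8.09e-06). HES1, a Notch target, differed by -0.83 ± 0.11 and the TGF-beta inhibitor SMAD7 by -0.85 ± 0.14. ID2, an inhibitor of helix-loop-helix factors, was higher, at 181 and 140 against 71.9 and 61.8 (1.26 ± 0.16). In the list of 10 ID, HES and SMAD genes, which hold targets of Notch, BMP and TGF-beta signals, 3 were lower and 1 higher, or 5 and 1 after scaling to the median of all probes. JAG1 is not among them.

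Of 10 cytokine and acute phase genes 2 were lower and 1 higher, and all 3 were large. Without ciclopirox replicate 1 the higher count was 2. IL24, a cytokine first found in differentiating melanoma cells, read 3001 and 3129 with crizotinib, 365.9 and 375.5 with ciclopirox and 159.4 and 167.5 in the controls. The difference was 3.05 ± 0.12 (adjusted p = 3.19e-07), after 2.26 at 8 h. SERPINA3, a protease inhibitor of the acute phase, read 404 and 329 against 3270 and 2630. The ciclopirox arrays were level with the controls at 2950 and 2320 and the crizotinib arrays far below (-3.01 ± 0.26, adjusted p = 3.52e-05). At 8 h SERPINA3 had not been called (0.27). CXCL8, the chemokine interleukin-8, read 2300 and 2310 against 6790 and 5330 (-1.38 ± 0.13), after -1.54 at 8 h.

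Interferon-induced and antigen presentation genes were higher with crizotinib for 12 of 24 and lower for 2, with a median of 0.35. Without crizotinib replicate 1 the higher count was 6, and scaling to the median of all probes gave 8. Only 1 was lower without crizotinib replicate 1, without crizotinib replicate 2 or without ciclopirox replicate 2. IFIT1, an RNA-binding antiviral protein, read 106 and 88.1 against 47.5 and 43.8, with the controls at 96.1 and 72.2 nearer to crizotinib (1.08 ± 0.14, adjusted p = 0.000456). The ubiquitin-like modifier ISG15 read 450 and 439 against 265 and 226 (0.86 ± 0.16), and IFI6 differed by 0.75 ± 0.09. IFIT1 had already differed by 1.22 at 8 h, whereas ISG15 had not been called then.

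Genes under FOXO factors, which act when insulin and PI3K signals are low, were higher for 7 of 16 and lower for 4, with a median of 0.24. With all-probe median scaling 5 were higher and 5 lower, with a median of 0.07. The lower count was 2 without crizotinib replicate 1, without crizotinib replicate 2 or without ciclopirox replicate 1. FOXO1 itself read 191 and 166 against 76 and 55.2 (1.46 ± 0.27). The phosphatase INPP5D was not above background with ciclopirox and was at least 2.76-fold higher with crizotinib (adjusted p = 0.00177). CITED2, a coregulator that restrains HIF, differed by 1.23 ± 0.12 and the sestrin SESN1 by 0.92 ± 0.10. TXNIP, an arrestin that limits glucose uptake, read 1950 and 1690 against 2130 and 1890 and stood above the controls at 472 and 544 with both drugs. It was not called at 24 h (-0.14, 95% interval -0.44 to 0.15), after 1.15 and a call at 8 h, and the change between times was called. Of 13 circadian genes 4 were lower and 1 higher, with a median of 0.11 that became -0.09 after scaling to the median of all probes. The lower count was 2 without crizotinib replicate 2, without ciclopirox replicate 1 or without ciclopirox replicate 2. The clock activator BMAL1 differed by -0.93 ± 0.14 and the repressor CRY1 by -0.77 ± 0.11, but a second probe of CRY1 gave -0.27.

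A melanoma identity could be checked from 5 measured markers of 11. SOX10, the factor of the melanocyte lineage, read 3820 and 3660 against 3830 and 3740 and was not called (-0.02, 95% interval -0.21 to 0.18). The proteoglycan CSPG4 was higher with crizotinib, at 2070 and 1870 against 1380 and 1240 (0.59 ± 0.11). MITF was measured close to background and not called (-0.05, 95% interval -0.60 to 0.51). The pigment genes MLANA, PMEL and TYR did not pass the detection filter. Of 12 melanocyte lineage genes 1 was higher and 1 lower, with 0 higher without crizotinib replicate 1 or ciclopirox replicate 2 and 0 lower without crizotinib replicate 2 or ciclopirox replicate 2. After all-probe median scaling 0 were higher and 1 lower. Markers of other cell types were few. Of 10 keratinocyte, 10 leukocyte, 11 fibroblast and 7 endothelial markers 1, 3, 6 and 1 were measured, and KRT5, KRT14, PTPRC, COL1A1, COL3A1, PECAM1 and CDH5 did not pass the filter. The summed intensity of the measured fibroblast markers was 391 and 345 with crizotinib against 281 and 290.0 with ciclopirox, and that of the leukocyte markers 1676 and 1627 against 1364 and 1505. CD68, a lysosomal protein of macrophages that many cell lines also make, was higher (0.78 ± 0.09), and CD74, the invariant chain of antigen presentation, was lower (-0.39 ± 0.13). The small proteoglycan LUM was higher (0.75 ± 0.13) and the collagen chain COL6A3 lower (-0.71 ± 0.17). CD74 was not called without crizotinib replicate 1, without crizotinib replicate 2 or without ciclopirox replicate 2 (adjusted p from 0.0636 to 0.244), nor COL6A3 without crizotinib replicate 2 or without ciclopirox replicate 2 (0.0778 and 0.105). Their part in the results was not tested.

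Some groups stayed near or below the share called among all genes, 12.3% higher and 11.8% lower. The autophagy, ERK feedback, metallothionein and zinc, and melanocyte lineage genes given above were among them. Of 35 respiratory chain genes 2 were higher and 0 lower, of 27 ribosome biogenesis genes 2 were lower and 0 higher, and of 17 Jumonji dioxygenases, which need iron, 1 was lower and 0 higher. The medians were -0.05, -0.16 and -0.11. Without crizotinib replicate 1, without crizotinib replicate 2 or without ciclopirox replicate 2, 0 respiratory chain genes were called by limma, and without ciclopirox replicate 1 there was 1. The count for ribosome biogenesis was 1 when any 1 of the 4 arrays was left out. For the Jumonji genes it was 0 without crizotinib replicate 1 or without ciclopirox replicate 2. Scaling to the median of all probes gave 0 higher and 2 lower respiratory chain genes, 6 lower ribosome biogenesis genes and 2 lower Jumonji genes. Clustered histone genes, whose copies are nearly identical and may share probes, did not belong to these groups, with 2 of 11 higher and 3 lower, or 2 and 5 after that scaling.

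**Figure D5:**
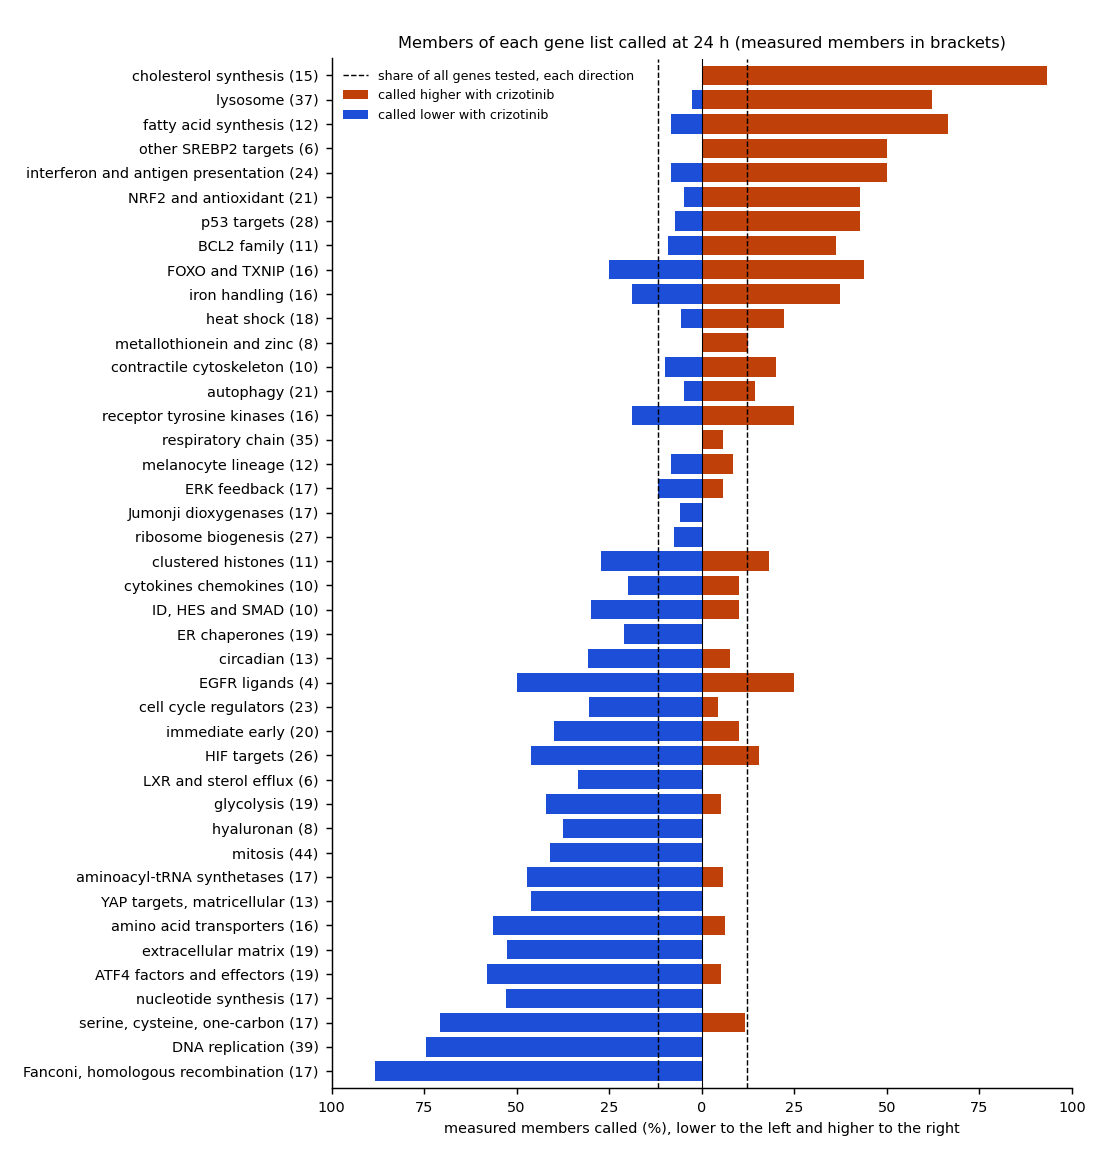
Share of the measured members of each gene list called higher (right) or lower (left) with crizotinib at 24 h, with dashed lines at the share of all genes tested, 12.3% and 11.8%. Cholesterol synthesis stands highest on the right, and homologous recombination, DNA replication and serine metabolism reach farthest to the left.

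The largest differences outside these lists were in genes of varied roles. FGFBP1, which releases fibroblast growth factors from matrix, was not above background with ciclopirox and read 169 and 180 with crizotinib, at least 4.46-fold higher (adjusted p = 3.08e-05). The neuropeptide receptor NPFFR2, the troponin TNNC1 and the receptor FCMR were likewise at least 3.94-fold, 3.29-fold and 3.26-fold higher. TRIML2 read 553 and 502 against 95.1 and 96.5 (2.46 ± 0.11, adjusted p = 6.68e-07). The hexose carrier SLC2A6 and the Notch-binding protein DNER differed by 2.34 ± 0.22 and 2.18 ± 0.24. On the lower side SCRG1 was not above background with crizotinib and was at least 2.40-fold lower. The semaphorin receptor PLXNA2 read 50.1 and 30.2 against 142 and 154 (-1.93 ± 0.23), but a second probe gave -0.25. Its reading of 30.2 was not above background. VLDLR-AS1, antisense to VLDLR, differed by -1.83 ± 0.17, and probes of such a pair may not tell the strands apart.

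The times shared part of their calls. At 8 h 1035 genes were called, and 443 genes were called in the same direction at both times, 231 higher and 212 lower. They made up 17.8% of the 24 h calls and 42.8% of the 8 h calls. A further 68 were called in opposite directions, 43 of them lower at 24 h after being higher at 8 h. Of the 24 h calls 1983 were not called at 8 h, which alone does not show a difference between the times. The direct test of the change called 946 of the 2494, and 944 of these had a change of the same sign as the 24 h difference.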

How the data were processed

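RNA from 12 A375 samples was measured on Illumina bead arrays, with 300 ng of RNA per array per the labels' protocols. GenomeStudio is named in the submitters' processing notes, and how they normalized the arrays is not given there. The authors deposited 2 tables. The first holds normalized intensities on a linear scale, from 12.0 to 38205, with column medians from 28.3 to 29.6. The second holds scanner intensities, background-subtracted by the authors as values below 0 show, with a detection p-value per probe as deposited. From the 38220 probes of the first, 16563 were kept, with a scanner detection p-value under 0.01 on at least 2 arrays. Gene symbols came from the platform annotation.

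The log2 intensities were fitted with limma 3.58.1 (R 4.3.3) as 5 group means over all 12 arrays, with 1 probe per gene (the highest mean) and Benjamini-Hochberg adjustment over 10330 genes. Adjusted p-values in the report are from this two-sided limma test. The arrays used for contrasts were 2 per drug at 24 h and 3 per drug at 8 h. The fit was tested on simulated data. A reading counted as above background over the 99th percentile of probes detected on no array, 38.4 to 42.6. Named genes were the 15 with the largest differences in each direction, up to 5 called members per list and a set of defining members. The members and gene lists were chosen with earlier results of these data known. Genes named outside the rule are the promoter matches, PFKFB4 and the cholesterol genes LSS, PMVK and TM7SF2, given as the ends of a range or the member not called. Alternatives covered filters, offset, probe choice, normalization, names, the replicate block and single arrays.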

Additional observations from a re-analysis of the deposited data

Results flagged for a closer look

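The drug difference at 24 h was set against that at 8 h, which uses other arrays. Of the 168 genes named here, limma called the change between the times for 113, for 50 towards crizotinib and for 63 towards ciclopirox, against 11.3% of all genes tested. Most of these genes were named for a large or called 24 h difference, which enters the change itself, so nothing is read from their share. Each value is the log2 difference at 24 h minus that at 8 h, so that a positive value means a shift towards crizotinib. No group had enough arrays for a search for single arrays that stand apart.

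Cholesterol synthesis moved by 2.44 for DHCR7, 2.92 for HMGCS1, 1.70 for LSS, 2.58 for MSMO1, 2.69 for MVD, 1.42 for MVK and 1.63 for SQLE. The change was 1.49 for INSIG1, 0.66 for LPIN1 and 0.44 for SCAP (SREBP2 targets). For fatty acid synthesis it came to 0.97 for ACSS2, 0.95 for ELOVL6, 1.04 for FASN, 1.16 for SCD and -0.52 for SREBF1. Sterol efflux moved by -0.63 for ABCA1 and -0.68 for MYLIP. The change was 0.83 for CTSF, 1.10 for CTSH, 1.26 for GPNMB and 0.79 for RRAGD (lysosome). For autophagy it came to 0.68 for MAP1LC3A, 1.07 for OPTN and 0.61 for SQSTM1.

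ATF4 response moved by -0.78 for CEBPG, -1.13 for CHAC1, -1.59 for DDIT3, -0.68 for STC2, -0.52 for TRIB3 and -0.96 for VLDLR. The change was -1.42 for ASNS, -1.47 for CTH, -0.50 for MTHFD1L, -1.23 for MTHFD2, -1.51 for PCK2 and -1.23 for PSAT1 (serine and one-carbon metabolism). For amino acid transport it came to -1.13 for SLC1A4, -1.29 for SLC1A5, -2.26 for SLC6A9 and -0.54 for SLC7A11. Genes of tRNA charging moved by -0.73 for GARS1, -0.62 for IARS1, -0.88 for MARS1 and -0.67 for WARS1. The change was -0.55 for HSPA5 and -0.98 for XBP1 (endoplasmic reticulum chaperones). For heat shock it came to 1.56 for HSPA1A, 1.09 for HSPA1B and 0.63 for HSPB1. HIF targets moved by 2.04 for BHLHE40, -0.69 for P4HA1 and 1.56 for PFKFB4. The change was 0.57 for HMOX1 (iron handling). For antioxidant genes it came to 0.54 for NQO1 and 0.57 for TXNRD1.

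DNA replication moved by -1.17 for CDC7, -1.03 for ORC6, -1.08 for POLE, -1.06 for POLE2 and -1.03 for RFC3. The change was -1.33 for BLM, -1.26 for EXO1, -1.56 for FANCB and -1.41 for RAD54L (homologous recombination). For nucleotide synthesis it came to -0.48 for RRM1 and -0.95 for RRM2. Mitosis moved by -1.44 for CDK1, -1.43 for CENPK, -1.45 for HAUS8 and -1.13 for UBE2C. The change was 0.50 for CCND1, -1.13 for CDC25A and -0.56 for E2F7 (cell cycle control). For p53 targets it came to 2.17 for CDKN1A, 1.12 for CYFIP2, 0.87 for SESN1 and 1.38 for ZMAT3. Apoptosis moved by 1.21 for HRK. The change was -2.21 for EGR1 and -1.86 for FOS (immediate early genes). For ERK feedback it came to -0.51 for SPRY4. Receptor tyrosine kinases moved by -0.99 for EGFR.

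Contractile genes moved by 1.06 for ACTA2 and -0.40 for TPM1. The change was -0.72 for COL4A1, -1.02 for COL4A2, -1.04 for COL5A2 and -1.71 for TNC (extracellular matrix). For hyaluronan it came to -1.41 for HAS2. Notch, BMP and TGF-beta targets moved by 1.17 for ID2. The change was 0.79 for IL24 and -3.28 for SERPINA3 (cytokines). For interferon response it came to 0.63 for IFI6 and 0.90 for ISG15. FOXO targets moved by 1.12 for CITED2, 1.35 for INPP5D and -1.29 for TXNIP. The change was -0.98 for BMAL1 and -0.52 for CRY1 (circadian genes). For other genes it came to 0.79 for CD68, -0.71 for CD74, -1.70 for CENPO, 1.77 for DNER, 1.70 for FCMR, 2.10 for FGFBP1, -1.05 for JAG1, 2.16 for NPFFR2, -1.70 for PSMC3IP, -2.75 for SCRG1, 1.64 for SLC2A6, 1.96 for TNNC1, 1.80 for TRIML2 and -1.30 for VLDLR-AS1.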

How the results depend on the processing

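Leaving out 1 array gave 1379 to 1944 called genes at 24 h (1379 without crizotinib replicate 1) and 583 to 1036 for the change between times, against 2494 and 1172. With only the 4 arrays of the comparison 1463 genes were called, and without a detection filter 1662 at 24 h, 481 at 8 h and 541 for the change. An adjusted p under 0.01 left 1254. Scaling to the median of all probes, added after the data had been seen, left 670 at 8 h. The 24 h, 8 h and change counts otherwise stayed within 1.5 times of the main counts, from 2312 to 2919, from 753 to 1509 and from 909 to 1731, except for the scanner names below. Under any setting 0 of the 2494 genes were called in the opposite direction, and under those names 0 were called at all. Their difference changed sign for 9 with the mean of all kept probes, for 1 without a detection filter and for 1531 under those names. The cause of the shifts in these counts was not tested, beyond the smaller number of arrays or the larger number of genes tested. The replicate numbers did not pair the arrays (correlations of same-numbered deviations from -0.097 to 0.080), and the fit with the replicate number as a block called 2312, 753 and 909. Single genes that were not called changed sign. MITF went to 0.10 with matched scanner signals scaled to their median. Without crizotinib replicate 2 MITF went to 0.014 and SOX10 to 0.014. Without ciclopirox replicate 2 MITF went to 0.041 and E2F1 to 0.11. E2F1 went to 0.0001 without crizotinib replicate 1, and SOX10 to 0.0008 without ciclopirox replicate 1. Among the fits with 1 array left out, SOX10 was lowest without crizotinib replicate 1, at -0.048. All arrays shared 1 chip and each group sat in neighbouring positions, which therefore cannot be told apart from the treatment.

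With scanner signals named by the descriptions, 0 genes were called by limma at 24 h and 0 for the change (1332 and 1525 at an unadjusted p under 0.05), and 2166 at 8 h. Of the 155 named genes called in the main comparison 0 stayed called, 59 kept their sign and 96 changed sign, and 7 others also changed sign. The values that changed sign were, by group, as follows. Fatty acid synthesis gave -0.58 for ACSS2 and -0.23 for SCD. Contractile genes gave -1.04 for ACTA2 and 0.27 for TPM1. HIF targets gave 1.46 for ANGPTL4, 1.03 for HK2, 0.67 for SLC2A1 and 0.38 for VEGFA. The ATF4 response gave 0.13 for ATF4, 0.011 for CEBPG, -2.04 for GDF15, 0.14 for STC2 and 0.41 for VLDLR. Metallothionein and zinc genes gave -0.33 for SLC30A1. Homologous recombination gave 0.12 for BLM, 0.19 for EXO1 and 0.054 for FANCB. Autophagy gave 0.58 for BNIP3, -0.26 for MAP1LC3A, -0.23 for OPTN and -0.38 for SQSTM1. YAP targets gave 0.27 for CCN1, 1.19 for CCN2, 1.34 for EDN1 and 0.69 for THBS1. Cell cycle control gave 0.56 for CCND1, 0.25 for CDC25A and 0.20 for E2F1. Other genes gave -0.28 for CD68, 0.17 for CENPO, -0.41 for CSPG4, -0.51 for DNER, -0.42 for FCMR, -0.46 for FGFBP1, -0.38 for LUM, -0.42 for NPFFR2, 0.41 for PLXNA2, -0.24 for SLC2A6, -0.063 for TNNC1 and -0.23 for TRIML2. DNA replication gave 0.076 for CDC7, 0.30 for MCM2, 0.083 for POLE, 0.25 for POLE2 and 0.20 for RFC3. P53 targets gave -0.65 for CDKN1A, -0.38 for CYFIP2, -0.31 for MDM2, -0.69 for SESN1, -1.13 for TP53INP1 and -0.18 for ZMAT3. Extracellular matrix gave 0.14 for COL4A1, 0.053 for COL5A1 and 0.23 for COL5A2. Circadian genes gave 0.18 for CRY1. Lysosome gave -0.18 for CTSA, -0.52 for CTSF, -0.025 for CTSH, -0.71 for FNIP1, -0.20 for GAA, -0.21 for GPNMB, -0.033 for LAMP1, -0.33 for MCOLN1 and -0.21 for RRAGD. Cytokines gave 0.59 for CXCL8 and -1.84 for IL24. Cholesterol synthesis gave -0.0050 for DHCR7, -0.32 for HMGCS1, -0.14 for LSS, -0.46 for MSMO1, -0.47 for MVK, -0.23 for PMVK, -0.31 for SQLE and -0.30 for TM7SF2. ERK feedback gave -0.14 for DUSP10. FOXO targets gave -0.59 for FOXO1 and -0.46 for INPP5D. Iron handling gave -0.075 for FTL and -0.18 for HMOX1. Serine and one-carbon metabolism gave -0.092 for GCLC and 0.14 for PSAT1. Mitosis gave 0.38 for HAUS8 and 0.23 for MKI67. EGFR ligands gave 0.52 for HBEGF. Notch, BMP and TGF-beta targets gave 0.030 for HES1, -0.070 for ID2 and 0.096 for SMAD7. Apoptosis gave -0.28 for HRK and 0.076 for PMAIP1. Endoplasmic reticulum chaperones gave 0.38 for HSPA5. Heat shock gave 0.016 for HSPA9. Interferon response gave -0.19 for IFI6, -0.91 for IFIT1 and -0.13 for ISG15. SREBP2 targets gave -0.64 for INSIG1 and -0.87 for LPIN1. Immediate early genes gave 0.25 for JUN, 0.25 for MYC and -0.84 for NR4A2. Sterol efflux gave 0.23 for MYLIP. Glycolysis gave 0.042 for PGK1. Nucleotide synthesis gave 0.069 for RRM1 and 0.42 for RRM2.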
